A study of Drosophila melanogaster with 8 samples.

Results

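The metallothionein genes MtnA, MtnB, MtnC, MtnD and MtnE were followed in STAT92E mutant and wild-type Drosophila S2R+ cells. They are 5 of the 13932 genes in the deposited tables. The genes were taken by their FlyBase symbols, and the set was put together with results of these libraries known. The comparison of the mutant line with the wild-type line is taken to be the one behind that choice, so it is given for these genes as a description without a test.

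Metallothioneins are small cysteine-rich proteins that bind copper, zinc and cadmium and keep these metals from harming the cell. In Drosophila their genes are switched on by metal load through the zinc-finger factor MTF-1, which binds metal response elements in their promoters. MtnA is linked above all to copper and MtnB to cadmium, and the MtnA promoter is in wide use as a copper-inducible promoter in S2 cell vectors.

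Poly-A RNA was sequenced from cells after 1 h with upd, a ligand of the JAK/STAT pathway, or with control media. Stat92E is the STAT transcription factor of that pathway. The 4 groups were the STAT92E mutant with upd, the STAT92E mutant with control media, wild type with upd and wild type with control media, with 2 libraries each. S2R+ is an embryo-derived line with hemocyte (blood cell) properties, and the mutant is an S2R+ line in which CRISPR was used to knock out the gene. The tables of all 4 upd libraries are named for conditioned buffer and the others for control buffer, so upd cannot be told apart from anything else that a conditioned medium holds. The labels do not say whether the mutant line is a clone, and they do not say whether replicates were separate cultures, so the spread between libraries may be technical.

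Library totals ranged from 8285533 to 30352948 counts, and the wild-type libraries numbered 1 were the shallowest. Stat92E itself had 21.1 and 25.3 RPKM (reads scaled to gene length and library size) in mutant cells with upd and 22.8 and 26.1 RPKM in mutant cells with control media. The wild-type libraries had 28.8 and 35.5 RPKM with upd and 31.6 and 41.0 RPKM with control media. All 4 mutant libraries were below all 4 wild-type libraries, and the transcript was still present in the mutant; a level over the whole gene does not show whether the edited stretch is intact. Of 10 hemocyte markers, the summed level was 435 to 470 CPM (counts after scaling for normalised library size) in mutant libraries and 854 to 1358 CPM in wild-type libraries. Single genes weighed heavily in these sums. The highest in wild type was Col4a1, at a mean of 498 CPM with upd and 479 CPM with control media. In the mutant it was Pxn with upd (200 CPM) and crq with control media (215 CPM), so the sums do not show that each marker was lower. NimC1 had 0 counts in every mutant library and in the wild-type libraries with upd. Markers of muscle summed to at most 3.59 CPM, of gut enterocytes to at most 0.131 CPM, of fat body to at most 15.7 CPM and of neurons to at most 23.1 CPM. The germ line markers summed to 136 to 171 CPM in mutant and 180 to 246 CPM in wild-type libraries. Most of this was 1 gene, aub, with means of 134 CPM (upd) and 160 CPM (control media) in the mutant. In wild type its means were 165 CPM with upd and 188 CPM with control media.

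All of the family members lie on chromosome arm 3R, but at different distances from Stat92E (dm6, FBgn0016917, 20535323 to 20552311, minus strand). MtnD (FBgn0053192, 20534962 to 20535301, plus strand) ends 21 bases from the end of Stat92E, and the genes converge. MtnE (FBgn0262146, 20534021 to 20534704, minus strand) lies 618 bases from Stat92E and points away from MtnD, with 257 bases between their starts. MtnB (FBgn0002869, 20503102 to 20503746, minus strand) is 31.6 kb from Stat92E, with Or92a and MFS9 between it and MtnE. MtnC (FBgn0038790, 20360308 to 20360634, plus strand) is 175 kb away, so it is in the same region but not beside the locus. MtnA (FBgn0002868, 9783407 to 9784370, minus strand) is 10751 kb away. Each gene is annotated as protein coding with 2 exon blocks, and no other annotated gene overlaps any of the 5. Their annotated proteins have 40 residues (MtnA), 43 (MtnB and MtnC), 44 (MtnD) and 41 (MtnE).

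MtnA was the most abundant metallothionein transcript in every group, followed by MtnD, MtnE and MtnB, and MtnC was not seen. MtnA averaged 120 ± 102 RPKM in mutant cells with upd and 90.2 ± 73.5 RPKM in mutant cells with control media, against 1309 ± 99.6 RPKM in wild-type cells with upd and 1309 ± 19.8 RPKM in wild-type cells with control media (SD, n = 2 for each mean here). MtnD averaged 30.4 ± 24.7 RPKM in mutant cells with upd and 27.8 ± 30.2 RPKM with control media, against 637 ± 201 RPKM in wild-type cells with upd and 619 ± 193 RPKM with control media. The gap to the other members was wide. MtnE averaged 2.36 ± 1.85 RPKM in mutant cells with upd and 0.750 ± 0.923 RPKM with control media, against 28.4 ± 9.89 RPKM in wild-type cells with upd and 28.8 ± 12.0 RPKM with control media. MtnB averaged 0.344 ± 0.138 RPKM in mutant cells with upd and 0.0489 ± 0.0691 RPKM with control media, against 4.71 ± 1.75 RPKM in wild-type cells with upd and 7.33 ± 1.98 RPKM with control media. Ranked by RPKM among all genes, MtnA stood between rank 382 and rank 1967 in mutant libraries and between rank 54 and rank 62 in wild-type libraries. MtnD stood between rank 1416 and rank 5248 in mutant libraries and between rank 105 and rank 148 in wild-type libraries. The order of the group means was the same on RPKM and on CPM per kilobase. Both scales divide the same counts by the same gene lengths, so within a library the order cannot differ between them. In both mutant groups the ranges of MtnA and MtnD overlapped across replicates, and so did those of MtnE and MtnB with control media. Within each mutant library MtnA was still above MtnD, by 2.89- to 5.92-fold.

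**Figure D1:**
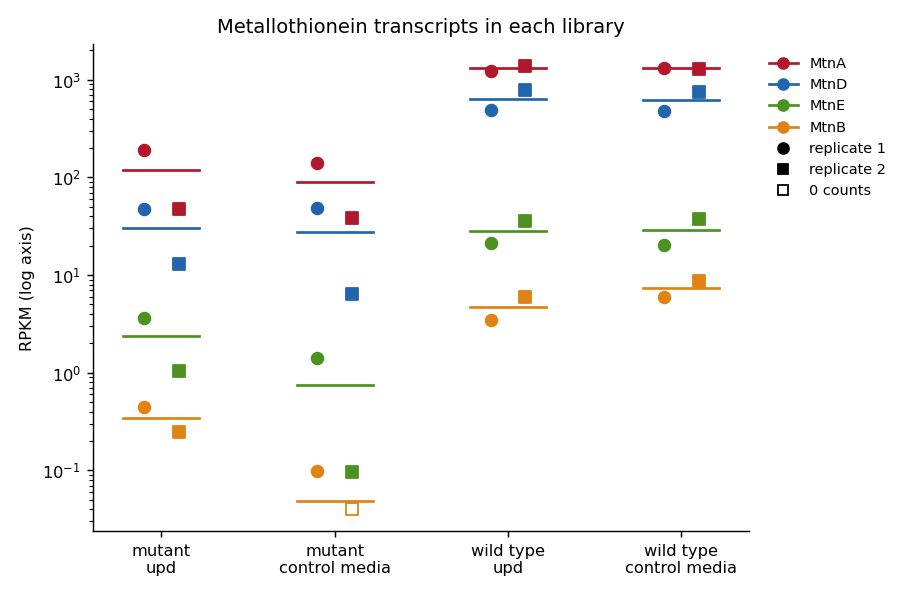
Each point is the RPKM of a metallothionein gene in 1 library on a log axis, with circles for replicate 1, squares for replicate 2 and lines at the mean of each group; the open square marks 0 counts and is drawn at an arbitrary height, and MtnC, with 0 counts in all 8 libraries, is left out. MtnA had 38.1 to 192 RPKM in the mutant libraries, against 1238 to 1379 RPKM in the wild-type libraries, and the mutant points of each gene are spread more widely.

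MtnA, the copper-linked member far from Stat92E, had 192 and 47.2 RPKM in mutant cells with upd and 142 and 38.1 RPKM in mutant cells with control media. In wild-type cells it had 1238 and 1379 RPKM with upd and 1323 and 1295 RPKM with control media. The groups did not overlap: the lowest wild-type library was 6.45-fold above the highest mutant library. The fitted log2 difference, mutant minus wild type, was −3.39 ± 0.75 (SE) with upd and −3.93 ± 0.77 with control media. In bulk RNA, fewer cells with a transcript and less transcript per cell cannot be told apart.

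MtnD, the member whose end lies closest to the end of Stat92E, was low in the same libraries. It had 47.9 and 13.0 RPKM in mutant cells with upd and 49.1 and 6.44 RPKM in mutant cells with control media. Wild-type cells had 495 and 779 RPKM with upd and 483 and 756 RPKM with control media. The lowest wild-type library was 9.83-fold above the highest mutant library, and the log2 difference was −4.32 ± 0.86 with upd and −4.50 ± 0.87 with control media.

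MtnE, which shares its upstream stretch with MtnD, was the next most abundant. Mutant cells had 3.67 and 1.05 RPKM with upd and 1.40 and 0.0974 RPKM with control media. Wild-type cells had 21.5 and 35.4 RPKM with upd and 20.3 and 37.3 RPKM with control media. The ranges were again separate, with the lowest wild-type library 5.54-fold above the highest mutant library. The log2 difference was −3.53 ± 0.71 with upd and −5.20 ± 0.81 with control media, the second of which sets 20 mutant counts in all against the wild type.

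MtnB, the cadmium-linked member, was scarce in mutant cells, with 5 and 3 counts with upd and 1 and 0 counts with control media. Wild-type cells had 17 and 91 counts with upd and 26 and 125 counts with control media. Per length this was 0.442, 0.246, 0.0978 and 0 RPKM in those mutant libraries, against 3.48, 5.95, 5.93 and 8.73 RPKM in those wild-type libraries. No mutant library reached a wild-type library, and the lowest wild-type library was 7.87-fold above the highest mutant library. The log2 difference with upd was −3.71 ± 0.68. With control media the mutant group rests on 1 count, so the fitted value (−6.83 ± 0.88) depends on the fit's prior, and the wild-type level over the mutant level was 147 with a 95% interval from 26.0 to 5836 for counting error only.

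MtnC had 0 counts in all 8 libraries. A count of 3 would be 0.334 to 1.16 RPKM in these libraries, so a lower level of MtnC was not detectable, and no comparison of the lines was possible. MtnB, MtnD and MtnE, near Stat92E, spanned log2 differences of −4.32 to −3.53 with upd, against −3.39 for MtnA. With control media MtnD and MtnE had −4.50 and −5.20, against −3.93 for MtnA. These differences between members were not tested, and each single value carries a standard error of 0.68 to 0.87.

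Other genes also separated the lines. Of the 8126 genes that passed the filter on low counts, 16.3% had all 4 mutant libraries below all 4 wild-type libraries, and 3.77% did so by 2-fold or more. MtnA, MtnB, MtnD and MtnE were among them, and MtnB passed the filter through the wild-type libraries in which it is high. Over the whole table, edgeR's quasi-likelihood test called 6.53% of genes lower in the mutant with upd and 5.7% lower with control media, at an adjusted p under 0.05. Those 4 genes were among the lower calls in both media, which is no evidence, since they were chosen on these lines. The summed hemocyte markers, with Col4a1 the highest in wild type, were also lower in every mutant library than in any wild-type library. Their part in the metallothionein levels was not tested.

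A further annotated metallothionein gene, MtnF (FBgn0262858, on 3R from 24634625 to 24635165), was looked up after its values were seen and is not one of the 5. It had 7.62 and 3.73 RPKM in mutant cells with upd and 6.49 and 2.81 RPKM in mutant cells with control media. Wild-type cells had 4.07 and 3.72 RPKM with upd and 5.84 and 4.37 RPKM with control media. The lines overlapped, and the log2 difference was 0.59 ± 0.59 with upd (edgeR adjusted p = 0.578) and −0.19 ± 0.59 with control media (adjusted p = 0.886). MtnF overlaps the gene atl, so reads may be shared between them.

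Most genes around Stat92E that could be tested did not pass between the lines, as was so over the whole table. Of the 10 genes on each side, 16 were not metallothioneins, and 9 of these had enough counts to test. All 9 lie across Stat92E from the metallothioneins. Of the 9, 1 passed, beside 6.53% of all genes lower and 3.99% higher with upd, and 5.7% lower and 3.27% higher with control media. The gene that passed was CG10877. It lies within the span of CG5191, which is on the other strand, so reads may be shared between them. CG10877 had 1.37 and 2.20 RPKM in mutant cells with upd and 1.52 and 2.57 RPKM in mutant cells with control media. In wild-type cells it had 8.25 and 11.6 RPKM with upd and 7.30 and 11.8 RPKM with control media. It fell by 2.45 ± 0.33 on the log2 scale with upd (edgeR adjusted p = 0.00234) and fell by 2.31 ± 0.33 with control media (adjusted p = 0.00377). The median log2 difference of the 9 genes was 0.28 with upd and −0.03 with control media, beside 0.02 and 0.01 over all genes tested. Stat92E itself differed by −0.45 ± 0.14 with upd (adjusted p = 0.0801) and fell by 0.65 ± 0.14 with control media (adjusted p = 0.0253). That call was lost when any of the 4 control-media libraries was left out, with adjusted p from 0.0612 to 0.219, and also with unscaled library totals (0.105) and by limma on log2(RPKM + 1) (0.162). The genes between MtnB and MtnE, Or92a and MFS9, had too few counts to test, so the stretch on the metallothionein side of Stat92E was read through the metallothioneins alone.

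Around MtnA, 10 neighbours were tested and 2 passed, both lower in the mutant. Among all genes tested, 6.53% passed lower with upd and 5.7% with control media. CG8500 starts 282 bases from MtnA and is read in the opposite direction. Its span overlaps that of CG12945 on the other strand, so reads may be shared between them. CG8500 had 2.81 and 2.44 RPKM in mutant cells with upd and 3.72 and 3.19 RPKM in mutant cells with control media. In wild-type cells it had 7.31 and 8.43 RPKM with upd and 9.25 and 9.97 RPKM with control media. It fell by 1.56 ± 0.20 on the log2 scale with upd (adjusted p = 0.00174) and fell by 1.56 ± 0.19 with control media (adjusted p = 0.00194). Whamy, which encodes a WASP-family actin regulator, fell by 2.0 ± 0.23 with upd (adjusted p = 0.0013) and fell by 1.39 ± 0.23 with control media (adjusted p = 0.00819). The control-media call for Whamy was lost without replicate 2 of the wild type (adjusted p = 0.0532) or replicate 1 of the mutant (adjusted p = 0.0779). The median of the 10 neighbours was 0.09 with upd and −0.06 with control media.

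**Figure D2:**
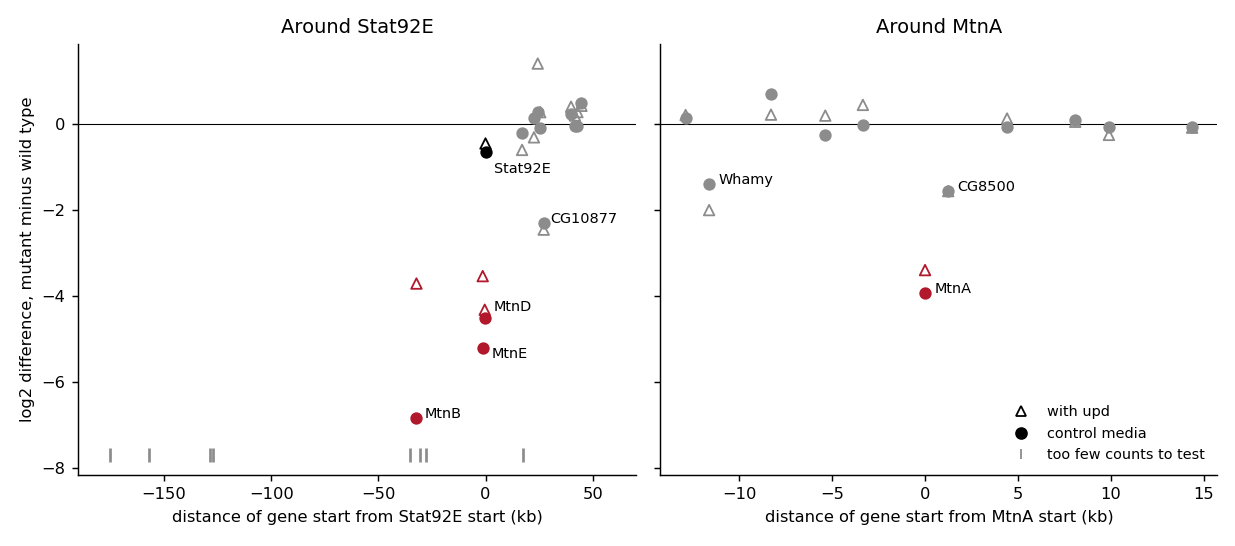
The log2 difference, mutant minus wild type, is plotted for each tested gene against the distance of its start from the start of Stat92E (left) or MtnA (right) in kb, with triangles for upd, filled circles for control media, metallothioneins in red and ticks for genes with too few counts to test. The metallothioneins, which were chosen on these lines, lie at −3.39 or below in both places. The other neighbours of Stat92E lie between −2.45 and 1.41.

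Metallothionein levels also varied widely between the replicates of the mutant line. The CPM of replicate 1 over that of replicate 2 in mutant cells was 4.45 with upd and 3.85 with control media for MtnA, 4.04 and 7.89 for MtnD, and 3.81 and 14.9 for MtnE. The ratio of 14.9 sets 19 MtnE counts against 1, which is under the floor of 3 counts. Replicate 1 was thus the higher of the pair for each of these genes in both media. The median absolute log2 difference between the same libraries over all genes tested was 0.277 with upd and 0.191 with control media. In mutant cells with upd, 4.55% of genes differed more between replicates than MtnA, 5.11% more than MtnD and 5.60% more than MtnE. In mutant cells with control media these shares were 3.73%, 1.49% and 0.960%, the last of which rests on the same 1 MtnE count in replicate 2. In wild-type cells the replicates were closer and replicate 2 was the higher for most members: the CPM of replicate 2 over that of replicate 1 was 1.30 with upd and 1.33 with control media for MtnD, and 1.37 and 1.56 for MtnE. MtnA went the other way there, with replicate 1 over replicate 2 at 1.09 and 1.20.

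Proportions between the members were compared within libraries. MtnA supplied 89.6% and 88.5% of all metallothionein counts in mutant cells with upd and 87.4% and 93.6% in mutant cells with control media. In wild-type cells its share was 85.2% and 80.2% with upd and 86.3% and 79.5% with control media. The lowest mutant share lay above the highest wild-type share, but their exact 95% binomial intervals overlapped (86.0% to 88.7% and 85.6% to 86.9%). Per length, MtnD over MtnA was 0.250 and 0.275 in mutant cells with upd and 0.346 and 0.169 with control media. The same ratio in wild-type cells was 0.399 and 0.565 with upd and 0.365 and 0.584 with control media. The 4 mutant ratios were below the 4 wild-type ratios, but the gap between 0.346 and 0.365 is smaller than the distance between replicates. MtnE over MtnD was 0.0765 and 0.0812 in mutant cells with upd and 0.0285 and 0.0151 with control media, against 0.0434 and 0.0455 in wild-type cells with upd and 0.0421 and 0.0493 with control media. For these divergent neighbours the wild-type ratios fell between those of the mutant with upd and those of the mutant with control media. The mutant ratios with control media rest on 19 and 1 MtnE counts, the second under the floor of 3 counts, and this placement was not tested.

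**Figure D3:**
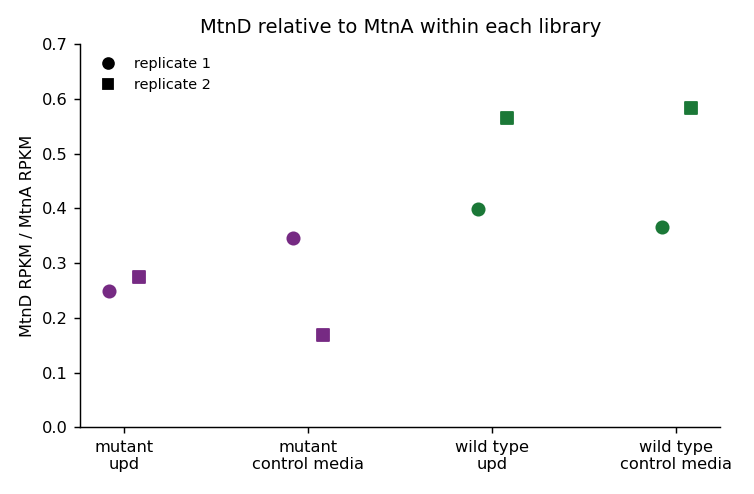
The ratio of MtnD RPKM to MtnA RPKM is plotted for each library on a linear axis from 0, with the mutant line on the left in purple, wild type on the right in green, circles for replicate 1 and squares for replicate 2. Mutant libraries lie between 0.169 and 0.346 and wild-type libraries between 0.365 and 0.584.

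The response to upd is taken not to lie behind the choice of these genes, and it was tested. Across all 8126 genes, edgeR called 0 genes, or 0.0%, in mutant cells, in wild-type cells and for the difference of the responses. An unadjusted p under 0.05 was reached by 266 genes (3.27%) in mutant cells, 148 (1.82%) in wild-type cells and 88 (1.08%) for the difference. DESeq2 called 2 genes (0.0246%), 10 (0.123%) and 1 (0.0123%) in the same comparisons, none of them a metallothionein. In mutant cells the log2 difference, upd minus control media, was 0.61 ± 0.69 for MtnA, 0.30 ± 0.80 for MtnD, 1.72 ± 0.84 for MtnE and 2.56 ± 1.08 for MtnB (edgeR adjusted p of at least 0.992). In wild-type cells it was 0.07 ± 0.68 for MtnA, 0.12 ± 0.74 for MtnD, 0.06 ± 0.61 for MtnE and −0.56 ± 0.55 for MtnB (adjusted p = 1 for each).

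On the CPM scale, MtnB was the only tested member whose upd and control libraries did not overlap. It had 0.252 and 0.128 CPM in mutant cells with upd, against 0.0478 and 0 CPM in mutant cells with control media. In wild-type cells it had 2.06 and 2.91 CPM with upd, against 3.29 and 4.10 CPM with control media. Both upd libraries were thus above both control libraries in mutant cells, as were 18.0% of tested genes, and both were below in wild-type cells, as were 12.3% of tested genes. On the RPKM scale the wild-type libraries overlapped, at 5.95 RPKM with upd and 5.93 RPKM with control media. The mutant values are 8 against 1 counts in all, a ratio of 6.91 with a 95% interval from 0.926 to 306. MtnE had 72 counts in mutant cells with upd against 20 with control media, a ratio of 3.11 with an interval from 1.87 to 5.39 that leaves out the spread between replicates, and its libraries overlapped. With no filter on low counts, where 0.16% of genes were called in mutant cells, MtnE passed (1.71 on the log2 scale, edgeR adjusted p = 0.027). The response in wild-type cells minus that in mutant cells was −3.12 ± 1.22 for MtnB (unadjusted p = 0.0317, adjusted p = 1) and −1.66 ± 1.05 for MtnE (adjusted p = 1). It was −0.54 ± 0.97 for MtnA and −0.18 ± 1.09 for MtnD (adjusted p = 1 for both).

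Within libraries of the same number the upd difference in mutant cells was positive for each tested member. On the log2 scale it was 0.66 and 0.45 for MtnA, 0.19 and 1.14 for MtnD, 1.58 and 3.12 for MtnE, and 1.92 and 2.60 for MtnB. In wild-type cells it was 0.00 and 0.15 for MtnA, 0.13 and 0.10 for MtnD, 0.17 and −0.01 for MtnE, and −0.67 and −0.49 for MtnB. The numbers are a label that libraries share, and nothing in the labels says that same-numbered libraries were handled together.

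**Figure D4:**
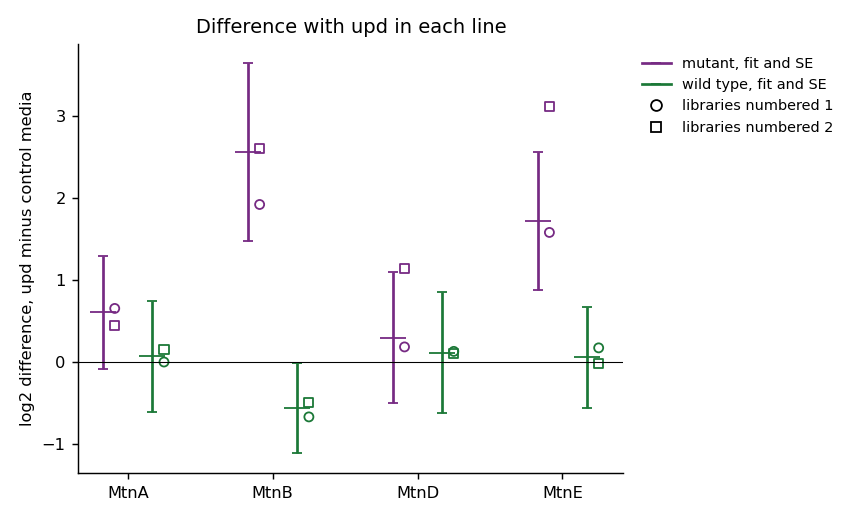
The log2 difference, upd minus control media, is shown for MtnA, MtnB, MtnD and MtnE in mutant cells (purple, left) and wild-type cells (green, right), with bars for the fitted value and its standard error and open symbols for the difference within libraries numbered 1 or 2. The wild-type fits lie between −0.56 and 0.12, and the mutant fits lie between 0.30 and 2.56 with standard errors of 0.69 to 1.08.

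Genes of metal sensing, copper, zinc and iron handling, oxidative stress and heat shock were examined beside the family, as 6 lists holding 65 genes, of which 55 were tested. Between the lines 5 of the 55 passed lower and 0 higher with upd, and 5 lower and 1 higher with control media, beside 6.53% lower and 3.99% higher with upd and 5.7% lower and 3.27% higher with control media among all genes. The median log2 difference of the 55 was −0.04 with upd and −0.17 with control media. MTF-1, the activator of the metallothionein genes, had 4.97 and 5.64 RPKM in mutant cells with upd and 6.42 and 4.68 RPKM with control media, against 4.03 and 5.47 RPKM in wild-type cells with upd and 3.65 and 5.68 RPKM with control media. Its libraries overlapped, and its log2 difference was 0.18 ± 0.22 in both media (adjusted p = 0.654 with upd and 0.683 with control media). Of the 5 tested genes in the list of MTF-1 and its classical targets, 0 passed by edgeR in either medium. An unadjusted p under 0.05 was reached by 1 with upd and 2 with control media. The share of all genes at that unadjusted level was not counted between the lines, so whether these counts stand out cannot be said. DESeq2, which called 9.51% of all genes lower with upd, called Fer1HCH, the ferritin heavy chain, where edgeR gave −0.55 ± 0.15 (adjusted p = 0.0502).

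Ctr1A, a copper importer, was the member of the copper list that passed, 1 of 7 tested. It had 13.0 and 13.1 RPKM in mutant cells with upd and 14.4 and 14.5 RPKM with control media, against 26.2 and 32.6 RPKM in wild-type cells with upd and 28.6 and 33.3 RPKM with control media. It fell by 1.14 ± 0.14 on the log2 scale with upd (edgeR adjusted p = 0.00169) and fell by 1.18 ± 0.14 with control media (adjusted p = 0.00177). Ctr1B, the copper importer that MTF-1 switches on when copper is scarce, differed by 0.58 ± 0.45 with upd (adjusted p = 0.466) and 0.74 ± 0.45 with control media (adjusted p = 0.359). The exporter ATP7 differed by 0.11 ± 0.17 with upd (adjusted p = 0.726) and −0.23 ± 0.17 with control media (adjusted p = 0.452).

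Of the 13 tested zinc transporters, foi passed, a member of the ZIP family of zinc importers. It had 38.5 and 41.0 RPKM in mutant cells with upd and 35.0 and 38.5 RPKM with control media, against 181 and 179 RPKM in wild-type cells with upd and 100.4 and 83.8 RPKM with control media. The gene fell by 2.17 ± 0.20 with upd (adjusted p = 0.000362) and fell by 1.43 ± 0.20 with control media (adjusted p = 0.00297). In the iron list of 9 tested genes, the transferrin gene Tsf3 fell by 1.51 ± 0.27 with upd (adjusted p = 0.00965) and fell by 1.28 ± 0.27 with control media (adjusted p = 0.0211). The call for Tsf3 was lost without replicate 2 of the wild type or replicate 1 of the mutant of the medium compared, with adjusted p from 0.0624 to 0.163. By limma it was lost in both media (adjusted p = 0.0507 with upd and 0.104 with control media), and with unscaled totals it was lost with control media (0.0677).

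Among 14 tested genes of glutathione and oxidative stress, Trxr1, a thioredoxin reductase, fell by 0.89 ± 0.18 with upd (adjusted p = 0.0161) and fell by 0.83 ± 0.18 with control media (adjusted p = 0.0241). Keap1, the inhibitor of the stress factor Cnc, fell by 0.92 ± 0.19 with upd (adjusted p = 0.0191). GstD1, a glutathione transferase, fell by 0.73 ± 0.17 with control media (adjusted p = 0.0334). Of 10 tested heat shock genes, Hsp27 was the only 1 that passed, higher by 1.29 ± 0.34 with control media (adjusted p = 0.0486). Leaving out any single library ended the call for Hsp27. It was also lost with median-of-ratios scaling (edgeR adjusted p = 0.0501). The calls for Trxr1, Keap1 and GstD1 were lost in some of the fits with a library left out, with adjusted p up to 0.203, 0.103 and 0.273. By limma the adjusted p was 0.0652 for Trxr1 and 0.0523 for Keap1 with upd, and 0.123 for Trxr1 and 0.147 for GstD1 with control media. With unscaled totals it was 0.0881 for Trxr1 and 0.118 for GstD1 with control media. With upd itself, 0 of the 55 genes passed by edgeR in either line or for the difference, 3 in mutant cells, 3 in wild-type cells and 1 for the difference had an unadjusted p under 0.05, and DESeq2 called foi in wild-type cells.

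**Figure D5:**
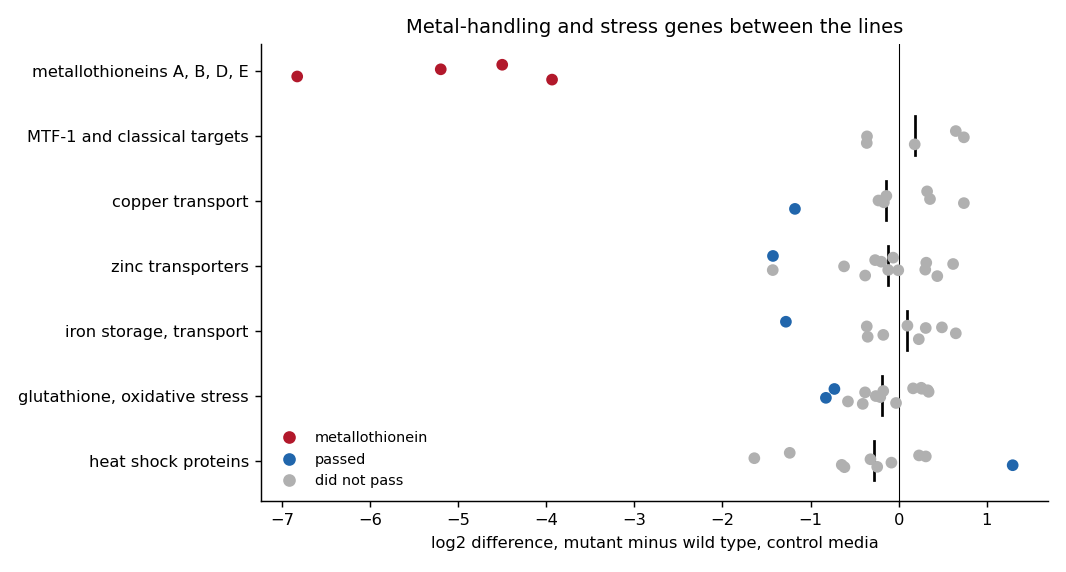
Each point is the log2 difference, mutant minus wild type, of 1 tested gene with control media, by list, with black ticks at the list's median, blue for genes that passed at an adjusted p under 0.05, grey for genes that did not, and red for the metallothioneins, which carry no test. The metallothioneins, which were chosen on these lines, lie between −6.83 and −3.93. The lowest of them, MtnB, rests on 1 mutant count. The listed genes lie between −1.64 and 1.29.

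The genes whose profiles were most like those of the metallothioneins were found by the root mean square difference of centred log2 CPM over the 8 libraries, where a smaller value is a closer match. Outside the family, those closest to MtnA were Tl, the Toll receptor, at 0.458, CG8547 at 0.497 and SA2, a cohesin subunit with less than 1 RPKM in every library, at 0.499. Tl had 2.14 and 1.17 RPKM in mutant cells with upd and 2.24 and 1.30 RPKM with control media, against 27.0 and 33.3 RPKM in wild-type cells with upd and 30.5 and 33.1 RPKM with control media. For MtnD they were GILT1 at 0.542, Alk, a receptor tyrosine kinase, at 0.598 and CG10126 at 0.657. GILT1 had 2.76 and 0.600 RPKM in mutant cells with upd and 3.26 and 0.891 RPKM with control media, against 64.8 and 71.0 RPKM in wild-type cells with upd and 58.1 and 55.1 RPKM with control media. In these genes, as in MtnA and MtnD, replicate 1 was the higher of each mutant pair. For MtnB they were Traf-like at 0.675, Epac at 0.678 and Sk1, a sphingosine kinase, at 0.754. For MtnE they were Traf-like at 0.925, CG42524 at 0.944 and Epac at 0.989. Traf-like and Epac had less than 1 RPKM in every library, and CG42524 had 0 RPKM in replicate 2 of the mutant in both media. At such levels, as for MtnB in the mutant, the prior count of 0.5 added before taking logs weighs in the profile. Inside the family, MtnB and MtnE differed by 0.599 and each was the closest of all genes to the other. MtnA and MtnD differed by 0.556, and MtnD and MtnE by 0.613. The 8 libraries fall into 2 lines, so the gap between the lines weighs heavily in these matches.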

How the data were processed

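Libraries were made from Trizol RNA by poly-A selection on an Apollo instrument, per the labels' protocols. The submitters' processing notes name Trimmomatic 0.36, STAR 2.5.2b and the dm6 assembly. No source used here gives the read counter, the annotation it used or its strand setting, so overlapping genes may share reads. Each library's deposited table lists a whole-number count, a length and an RPKM value per gene. RPKM is a multiple of the authors' own count over length with 1 constant per library, and gene totals were 85.2% to 90.6% of the reads behind that constant. Symbols and positions were looked up in the dm6 annotation of Ensembl release 115, where 13852 identifiers were found and 80 were not. The deposited length of MtnB is 456 bases and the annotated exons cover 584, while the other members' lengths are equal.

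The counts were fitted with edgeR 4.0.16 (R 4.3.3) by a quasi-likelihood model over the 8 libraries with a mean per group. TMM scaling and filterByExpr left 8126 genes and 4 residual degrees of freedom. Tests were two-sided, with Benjamini-Hochberg adjustment over all genes tested in each of 5 comparisons and a threshold of 0.05. The scripts were tested on simulated data. Other fits used DESeq2 1.42.0, RLE (median of ratios) scaling, unscaled totals, unfiltered genes, limma 3.58.1 on log2(RPKM + 1), the replicate number as a term in 2 forms, or 1 library fewer. Count ratios have 95% intervals, and these and the floor of 3 counts cover counting error only.

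The members, the gene lists, the tests and the alternatives were chosen with earlier results of these data known. Named genes were the metallothioneins, Stat92E, MTF-1, the 10 nearest genes on each side of Stat92E and 5 on each side of MtnA where they passed or lie near a member, up to 6 genes per list with the lowest p, and the 3 genes most like each member. MtnF falls outside this rule.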

Additional observations from a re-analysis of the deposited data

Results flagged for a closer look

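MtnB differed in the direction of its upd response between the lines. Both mutant libraries with upd were above both mutant libraries with control media (5 and 3 counts against 1 and 0, or 0.252 and 0.128 CPM against 0.0478 and 0 CPM), while both wild-type libraries with upd were below both wild-type libraries with control media on the CPM scale (2.06 and 2.91 CPM against 3.29 and 4.10 CPM). On the RPKM scale the wild-type libraries overlapped, at 3.48 and 5.95 RPKM with upd against 5.93 and 8.73 RPKM with control media. The response in wild-type cells minus that in mutant cells was −3.12 ± 1.22 on the log2 scale (SE), with an unadjusted p of 0.0317 and an adjusted p of 1 by edgeR's interaction term. The mutant side rests on 8 counts with upd and 1 with control media, and no cause was tested.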

How the results depend on the processing

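Each of the 4 tested metallothioneins kept its direction between the lines in all alternatives tried. Their mutant and wild-type libraries did not overlap, and the genes were chosen on these lines, so a kept direction is no evidence. Leaving out single libraries moved the log2 difference, mutant minus wild type, of MtnA between −4.84 and −2.69 with upd and between −5.21 and −3.27 with control media. For MtnB these ranges were −4.24 to −3.30 and −9.19 to −6.11, for MtnD −5.64 to −3.63 and −6.67 to −3.69, and for MtnE −4.78 to −2.85 and −8.16 to −4.39. Each lowest value came without replicate 1 of the mutant in that medium, and each highest without replicate 2. Not all of these genes stayed past the threshold in every such fit. They were chosen on these lines, so passing or not passing is no evidence here. The number of genes called between the lines with upd (855) was 1429 with no filter and 1386 with the replicate number as a block over all libraries, and 382 to 774 with single libraries left out. With control media (729) it was 1138 by DESeq2, 1294 with no filter, 1247 with the replicate block and 253 to 782 with single libraries left out.

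For upd, edgeR's 0 calls in mutant cells became 2 by DESeq2 and 18 with no filter, and stayed at 0 with any library left out. The 0 calls in wild-type cells became 10 by DESeq2, 16 with no filter, 1 with the replicate block, and 0 to 2 with single libraries left out. For the difference of the responses they became 1 by DESeq2 and 4 with no filter. With no filter MtnE passed in mutant cells (log2 difference 1.71, adjusted p = 0.027), as 1 of the metallothioneins. With a replicate block within each genotype, 467 genes (5.75%) passed in mutant cells, 111 in wild-type cells and 33 for the difference, and 2 metallothioneins passed in mutant cells, MtnA (0.56 ± 0.10, adjusted p = 0.002) and MtnE (1.86 ± 0.39, adjusted p = 0.008). Deviations of same-numbered libraries correlated at 0.737 within the mutant line, 0.778 within wild type and −0.04 to 0.19 across the lines (5825 genes). With 2 numbers per line this is a hint from the data and not from the design. The cause of these shifts was not tested. Small upd differences changed sign: MtnA in wild-type cells was −0.0022 by limma, and MtnE in wild-type cells was −0.0115 with library totals alone. With single libraries left out, the upd difference in mutant cells ranged from −0.84 to 1.89 for MtnA, 1.84 to 4.93 for MtnB, −1.03 to 2.47 for MtnD and 0.48 to 4.68 for MtnE. In wild-type cells it ranged from −0.054 to 0.206 for MtnA, −0.091 to 0.339 for MtnD and −0.22 to 0.43 for MtnE. The difference of the responses ranged from −1.82 to 0.91 for MtnA, −5.48 to −2.40 for MtnB, −2.36 to 1.15 for MtnD and −4.62 to −0.42 for MtnE. On CPM per kilobase the wild-type level of MtnA was 1545 with upd and 1471 with control media. Levels under 3 counts were not detectable at this depth. They include MtnC in every library, MtnB in the mutant libraries with control media, and MtnE in replicate 2 of that group.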
